A study of Mus musculus with 23 samples.

Results

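Gata1, Klf1, Zfpm1, Tal1, Nfe2, Gfi1b and Hemgn, 7 transcription regulators of the red cell line, were followed through single cells of mouse bone marrow. They were chosen by symbol, and all 7 had a row among the 23536 gene rows of the deposited table. The study flushed marrow gently, trimmed it with needles to clumps of a few cells, separated those into single cells and read their transcripts by CEL-seq, a method that tags each molecule at its 3′ end. It also sorted haematopoietic stem cells (sorted HSC) as Lineage-, Kit+, Sca1+, CD150+ and CD48- cells. The labels give no strain, age, sex, genotype change or treatment for either group, and do not say whether libraries came from separate mice, so p-values here speak only for variation from library to library, whatever its source. Of 1915 cells in the table, the 952 with at least 1000 estimated transcripts were used. They comprised 245 sorted HSC in 4 libraries and 707 micro-dissected cells in 17 libraries.

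In erythroid cells GATA1 binds GATA motifs and TAL1 binds E boxes beside them, and the proteins LMO2 and LDB1 hold both in a complex. FOG1, the product of Zfpm1, is the cofactor that GATA1 needs for many of its targets. KLF1 binds CACCC boxes and drives the adult β-globin gene, NFE2 pairs with small MAF proteins at globin and platelet genes, and GFI1B is a repressor needed in red cell and megakaryocyte precursors. Hemogen, the product of Hemgn, is a nuclear regulator of haematopoietic cells and a known GATA1 target. Megakaryocytes, the platelet-forming cells, use GATA1, FOG1, TAL1, NFE2 and GFI1B too, while KLF1 favours the red cell fate, so megakaryocyte-like cells are shown apart.

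In the mm10 annotation the genes lie at chrX:7959260-7978071 on the minus strand (Gata1), chr8:84901928-84905291 on the plus strand (Klf1), chr8:122282141-122337251 on the plus strand (Zfpm1) and chr4:115056426-115071755 on the plus strand (Tal1). Nfe2 lies at chr15:103248212-103258403, Gfi1b at chr2:28609450-28621982 and Hemgn at chr4:46393989-46413506, all on the minus strand. The gene model Gm20388 spans Zfpm1 on the same strand, 3′ end included, so the split of reads between them is uncertain. RefSeq start sites of build GRCm38.p6 matched 6 of the 7 genes. The 250 bases before the start are shown for the 4 genes that held a GATA motif in this window, since these are the letters their own complex reads. Capitals mark AGATAA or TGATAA on either strand (TTATCT and TTATCA are the reverse complements), and each sequence runs 5′ to 3′ on the gene's strand.
Klf1 (chr8:84901732-84901981, plus strand): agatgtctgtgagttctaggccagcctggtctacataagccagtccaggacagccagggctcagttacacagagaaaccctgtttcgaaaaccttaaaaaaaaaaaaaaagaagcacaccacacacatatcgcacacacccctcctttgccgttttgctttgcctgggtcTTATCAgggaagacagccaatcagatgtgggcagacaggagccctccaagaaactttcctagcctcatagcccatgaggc
Hemgn (chr4:46404184-46404433, minus strand): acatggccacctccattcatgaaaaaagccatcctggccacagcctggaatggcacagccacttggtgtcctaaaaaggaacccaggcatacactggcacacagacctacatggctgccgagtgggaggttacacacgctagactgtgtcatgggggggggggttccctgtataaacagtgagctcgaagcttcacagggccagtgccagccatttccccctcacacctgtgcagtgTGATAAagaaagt
Gfi1b (chr2:28621983-28622232, minus strand): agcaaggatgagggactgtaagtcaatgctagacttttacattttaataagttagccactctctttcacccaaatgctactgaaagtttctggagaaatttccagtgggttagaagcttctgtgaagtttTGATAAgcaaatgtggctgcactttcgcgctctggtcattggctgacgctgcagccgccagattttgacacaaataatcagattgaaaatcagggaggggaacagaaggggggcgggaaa
Tal1, first of its starts (chr4:115056176-115056425, plus strand): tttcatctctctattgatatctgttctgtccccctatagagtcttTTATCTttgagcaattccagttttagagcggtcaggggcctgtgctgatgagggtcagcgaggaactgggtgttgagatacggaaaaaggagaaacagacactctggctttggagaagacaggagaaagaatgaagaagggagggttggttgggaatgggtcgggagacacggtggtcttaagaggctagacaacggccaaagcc
The motif began 80 bases before the start of Klf1, 13 before that of Hemgn, 120 before that of Gfi1b and 205 before that of Tal1. The RefSeq starts used for Klf1, Hemgn and Gata1 lie inside the gene spans given above. Those of Gfi1b and the first of Tal1 lie at the 5′ end of their spans. Of 32851 windows of the same length at all RefSeq starts, 16.6% held AGATAA or TGATAA. The CACCC box, searched as CCNCNCCC on both strands, was found for 5 of the 6 genes and in 45.9% of all windows. The E box CAGNTG was found before Klf1 and Hemgn and in 44.8% of all windows, and the NF-E2 core TGAGTCA, found in 4.46% of all windows, was in none of these. No GATA match overlapped a CACCC or E box match in these windows, the CACCC match before Hemgn is a run of G, and a match describes letters only.

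Levels are given as CPM, the gene's transcripts per 1000000 transcripts of the summed cells. Kept cells ranged from 2 to 91 per sorted HSC library and from 6 to 73 per micro-dissected library, with 3119 to 238770 and 9032 to 313488 summed transcripts. The HSC and progenitor marker list summed to 7728 to 10065 CPM per library in sorted HSC, against 248 to 1265 CPM in micro-dissected cells. Clusters built without the 7 genes and their related regulators gave, among others, 238 erythroblast-like cells in 15 libraries, 8 megakaryocyte-like, 46 eosinophil-like and 263 neutrophil-line cells (promyelocyte-like, myelocyte-like and mature neutrophil-like), and 57 cells that stayed unnamed. The erythroblast list, which also served to name the clusters, was present with 35 of 35 genes in erythroblast-like cells, at 48105 to 299243 CPM per library. In sorted HSC it was present with 24 of 35 genes at 964 to 2498 CPM. Sums over libraries cannot tell fewer expressing cells from less RNA per cell.

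**Figure D1:**
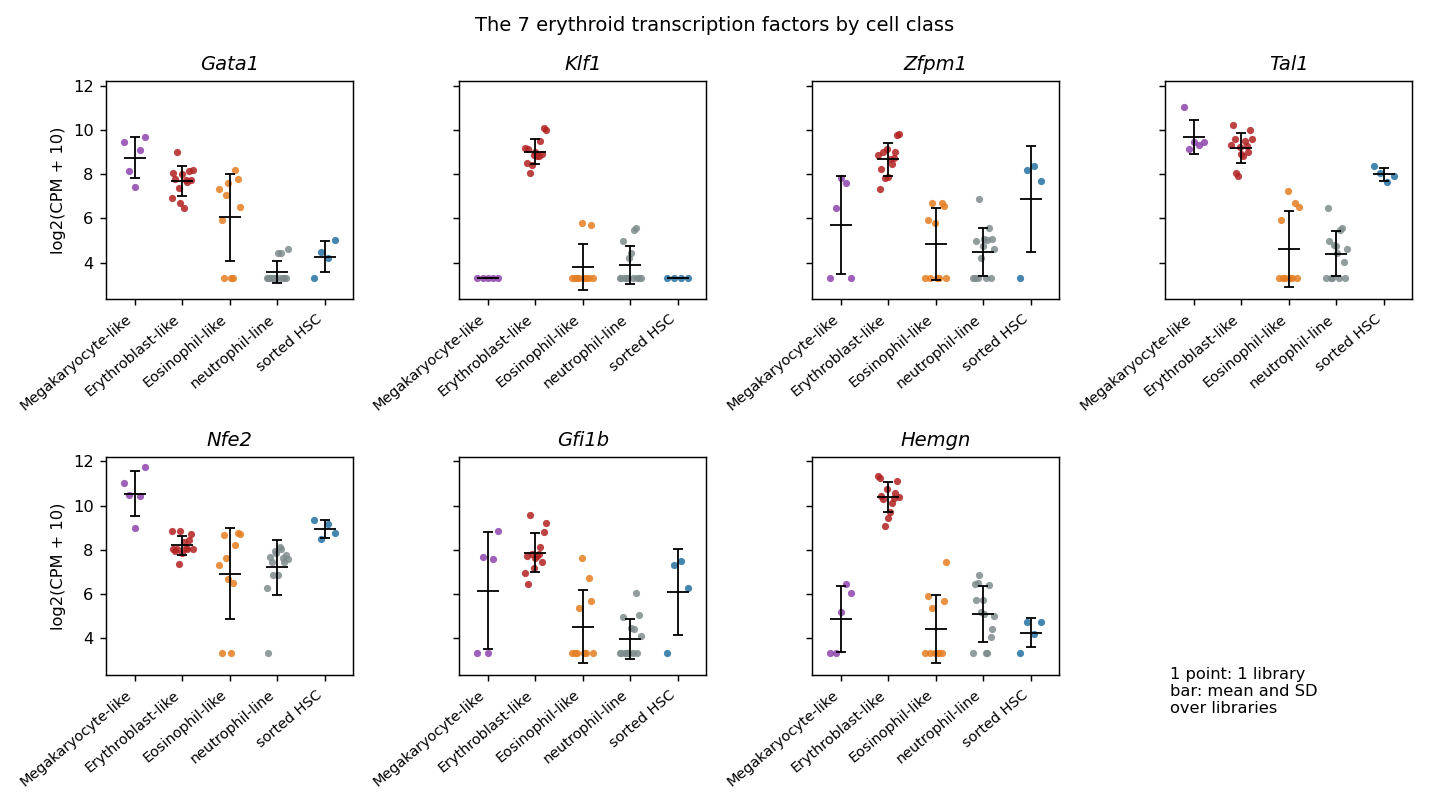
Level of each of the 7 genes by class of cells, as log2(CPM + 10); 1 point is 1 library and the bar is the mean and SD over libraries. Klf1 and Hemgn stand highest in erythroblast-like cells (551 and 1454 CPM on average), whereas Nfe2 stands highest in megakaryocyte-like cells (1769 CPM) and is seen in every class.

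The 7 genes fell into different patterns over the classes. Pooled over the 238 erythroblast-like cells, Hemgn had 968 transcripts, Tal1 461, Klf1 458, Zfpm1 356, Nfe2 206, Gfi1b 200 and Gata1 151. Gata1 had the fewest transcripts of the 7 there, at 212 CPM with an exact 95% Poisson interval of 180 to 249, which like all such intervals here covers counting error only. Because CEL-seq counts molecules by their 3′ end, these counts are not divided by gene length. Erythroblast-like cells were 25% of the kept cells and held 90.5% of all Klf1 transcripts, 85.5% of Hemgn, 61.8% of Gfi1b, 61.2% of Zfpm1 and 60.6% each of Gata1 and Tal1. They held 22.4% of Nfe2 transcripts, close to the 23.5% of all genes' transcripts that they held.

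The order of the classes is given over libraries with at least 3 cells of a class, or 1 for megakaryocyte-like cells and sorted HSC, and classes are said to overlap where their mean ± SD do. Klf1, the most restricted, averaged 551 ± 245 CPM (SD, n = 13 libraries) in erythroblast-like cells and 147 ± 175 CPM (SD, n = 5) in the unnamed cells, which overlapped, and had no transcript in megakaryocyte-like, mature neutrophil-like or B and plasma cell-like cells or sorted HSC. Hemgn followed the same order at the top, with 1454 ± 642 CPM (SD, n = 13) in erythroblast-like and 504 ± 477 CPM (SD, n = 5) in unnamed cells. The unnamed cells came from micro-dissected replicates 1 to 5 alone, and their erythroblast list summed to 3274 to 117133 CPM per library. With finer clusters, a cluster of 27 cells was named erythroblast-like, with 16 raised markers of that list. Its leading genes, such as Map1a and Igf2bp2, also led the unnamed cells. The part of erythroblasts or erythroid RNA in the levels of the unnamed cells was not tested.

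Gata1 was led by megakaryocyte-like cells, at 491 ± 271 CPM (SD, n = 5), then erythroblast-like cells at 216 ± 110 CPM (SD, n = 13) and eosinophil-like cells at 109 ± 99.5 CPM (SD, n = 10), and neighbours in this order overlapped. Tal1 had the same top pair, 935 ± 653 CPM in megakaryocyte-like and 626 ± 267 CPM in erythroblast-like cells (SD, n = 5 and 13). The megakaryocyte-like mean was raised by replicate 1, a single cell at 2099 CPM. Pooled, Tal1 had 680 CPM (exact 95% Poisson interval 546 to 847) in megakaryocyte-like and 650 CPM (591 to 711) in erythroblast-like cells. The next class for Tal1, sorted HSC at 249 ± 55.2 CPM (SD, n = 4), did not overlap erythroblast-like cells and overlapped the wider spread of megakaryocyte-like cells. Zfpm1 was led by erythroblast-like cells at 447 ± 229 CPM (SD, n = 13) and sorted HSC at 199 ± 144 CPM (SD, n = 4), and Gfi1b by erythroblast-like cells at 273 ± 199 CPM (SD, n = 13) and megakaryocyte-like cells at 166 ± 186 CPM (SD, n = 5).

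Nfe2 ran in another order. Megakaryocyte-like cells averaged 1769 ± 1106 CPM (SD, n = 5), apart from sorted HSC at 495 ± 133 CPM (SD, n = 4), mature neutrophil-like cells at 381 ± 210 CPM and erythroblast-like cells at 297 ± 92.7 CPM (SD, n = 13), which overlapped in that order. Unnamed, myelocyte-like, eosinophil-like and monocyte-like cells followed at 249.9, 211, 203 and 189 CPM, and promyelocyte-like cells at 120 CPM. Nfe2 was the only one of the 7 with over 100 CPM in pooled neutrophil-line cells (190 CPM, 185 transcripts), where the others lay between 4.11 CPM (Gata1) and 25.7 CPM (Hemgn).

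The study's labelled contrast is sorted HSC against all micro-dissected cells. Of the 7 genes, Klf1, Hemgn and Gata1 were lower in sorted HSC and Tal1, Zfpm1, Nfe2 and Gfi1b did not pass the test (edgeR quasi-likelihood test on sums per library, Benjamini-Hochberg adjusted p below 0.05 over 3639 genes). Over all genes tested 19.2% were called lower and 11.2% higher, so 3 of 7 lower stands beside about 1 in 5. The median log2 fold change over all genes was -0.16.

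Klf1 had no transcript in any of the 4 sorted HSC libraries, against 0, 140 and 427 CPM (lowest, median, highest) in micro-dissected libraries. Pooled, it was at least 36.7-fold lower in sorted HSC, taking 3 transcripts over the group as the limit of a count of 0 (adjusted p = 0.000223). Hemgn had 0, 16.8, 8.55 and 16.7 CPM in sorted HSC replicates 1, 3, 4 and 5, against 129, 382 and 1057 CPM (lowest, median, highest) in micro-dissected libraries. The log2 fold change was -5.11 (SE 0.68, adjusted p = 3.25e-07). Gata1 had 0, 12.6, 8.55 and 22.2 CPM in the same sorted HSC libraries, against 37.1, 102 and 207 CPM (lowest, median, highest) in micro-dissected libraries. The Gata1 log2 fold change was -2.76 (SE 0.52, adjusted p = 8.0e-05). For Hemgn and Gata1, sorted HSC replicates 3, 4 and 5 lay below every micro-dissected library. Replicate 1 held 2 cells and 3119 transcripts. A single transcript there would exceed the highest micro-dissected Gata1 level and fall inside the Hemgn range, so its 0 cannot show separation. The share of all genes that separate likewise is not given here.

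The other 4 were present in sorted HSC. Tal1 had 322, 252, 188 and 233 CPM in the 4 sorted HSC libraries, inside the micro-dissected range of 0 to 482 CPM (log2 fold change -0.35, SE 0.43, adjusted p = 0.577). Nfe2 had 644, 348, 564 and 422 CPM there, 1 library above and 3 inside a micro-dissected range of 0 to 632 CPM (log2 fold change 0.54, SE 0.36, adjusted p = 0.265). Zfpm1 had 0, 277, 325 and 194 CPM and Gfi1b 0, 147, 171 and 66.7 CPM, with adjusted p = 0.519 and 0.725. These zeros, the Nfe2 value of 644 CPM and the Tal1 value of 322 CPM are in replicate 1. It held 2 cells and 3119 transcripts, so that 1 transcript there is worth about 321 CPM. The 632 CPM at the top of the micro-dissected Nfe2 range came from a library of 6 cells. Scaled by library totals, Nfe2 passed at a log2 fold change of 0.93 (adjusted p = 0.03), the all-gene median was 0.17, and 57.5% of all called genes were higher in sorted HSC, against 36.9% with TMM factors and 45.4% with factors computed without globin genes.

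**Figure D2:**
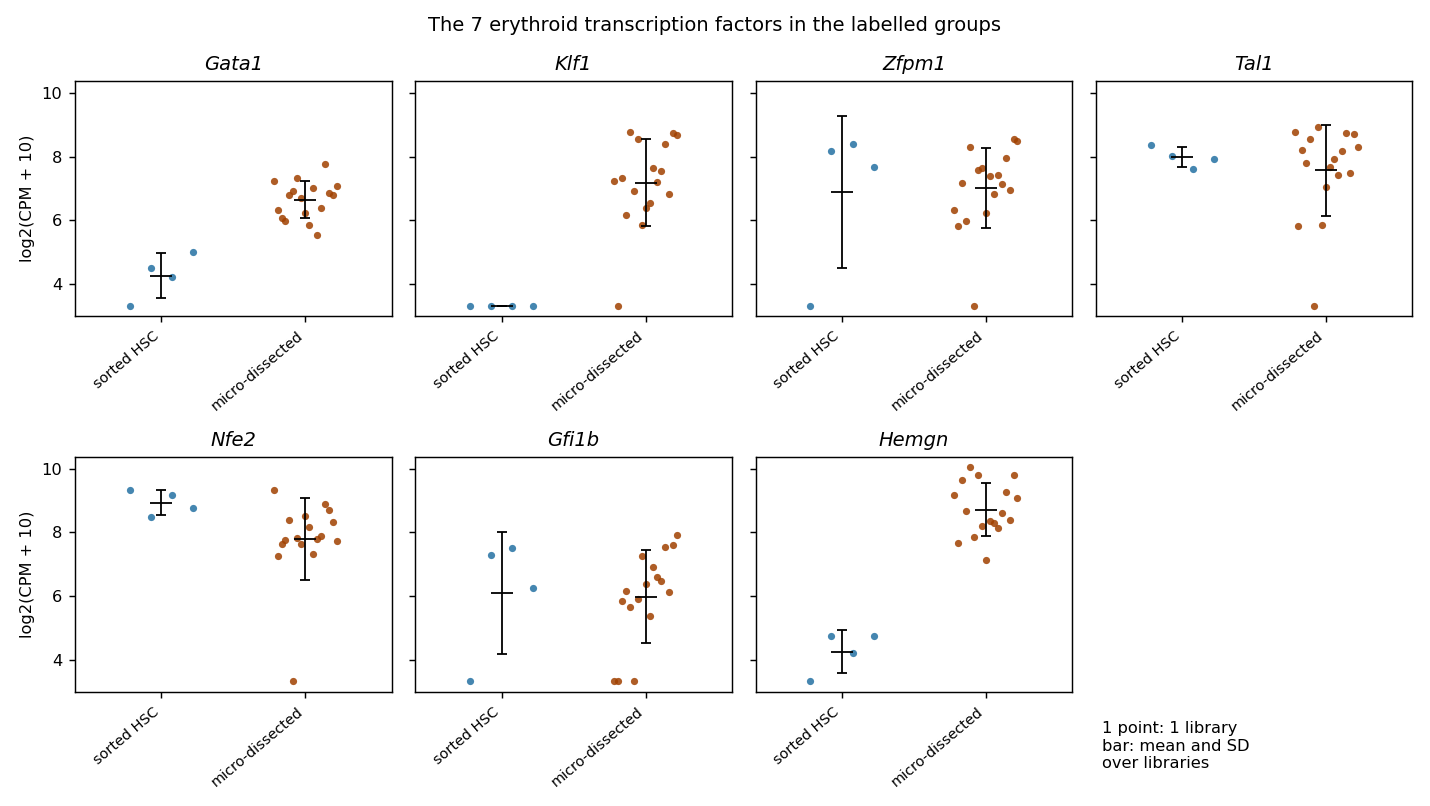
Level of the 7 genes as log2(CPM + 10) in 4 sorted HSC libraries and 17 micro-dissected libraries, 1 point per library, with mean and SD. For Gata1 and Hemgn all 4 sorted HSC libraries lie below every micro-dissected library, and for Tal1, Zfpm1, Nfe2 and Gfi1b the groups overlap.

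The related lists did not move as 1 block in this contrast. Of 12 tested partners of the GATA1 and TAL1 complex, 5 were higher and 0 lower in sorted HSC, with a median log2 fold change of 0.72 against -0.16 over all genes. They included Lmo2 (1.35), the bridge of the complex, Lyl1 (1.10), a close relative of TAL1, and Cbfa2t3 (2.86), a corepressor. Of 12 other erythroid regulators 1 was higher and 8 were lower (median -1.68), among them E2f2 (-4.76) and E2f4 (-1.91), cell cycle factors of red cell maturation, and Klf13 (-1.09). All 24 tested erythroid target genes were lower (median -5.68), such as Hbb-b1 (-10.44), Slc4a1 (-8.76) and Car2 (-1.54). Of 9 stem and myeloid factors 4 were higher, including Hlf (5.96) and Myb (1.10), and 2 lower, including Cebpe (-6.79). Of the 3 tested genes of the small MAF and NFE2-related family, Nfe2l2 was lower (-1.37).

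Erythroblast-like cells were then set against sorted HSC, which leaves out the other marrow cells (12 libraries with at least 5 erythroblast-like cells, and 4 sorted HSC libraries). Klf1, Hemgn, Gata1 and Tal1 were higher in erythroblast-like cells and Nfe2 was lower. Of the 1448 genes tested 29.1% were called higher and 22.9% lower, so 4 and 1 of 7 stand beside a background in which most genes were called. The sorted HSC libraries are those of the contrast above, so the results are not separate evidence on the sorted HSC.

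Hemgn had 527, 1343 and 2585 CPM (lowest, median, highest) in erythroblast-like cells, against at most 16.8 CPM in sorted HSC (log2 fold change 6.10, SE 0.61, adjusted p = 8.13e-11). Klf1 had 332, 483 and 1068 CPM in erythroblast-like cells, against 0 in sorted HSC, and was at least 116-fold higher on pooled counts (adjusted p = 5.03e-11). Gata1 had 79.4, 199 and 285 CPM in erythroblast-like cells, against 0 to 22.2 CPM in sorted HSC (log2 fold change 3.20, SE 0.49, adjusted p = 9.06e-07). For these 3 genes, 12 of 12 libraries lay above every sorted HSC library, of which replicate 1, with 2 cells, had 0 for each. The share of all genes that separate likewise is not given here.

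Tal1 differed by less, at 234, 615 and 1163 CPM (lowest, median, highest) in erythroblast-like cells, against 188 to 322 CPM in sorted HSC, with 11 of 12 libraries above (log2 fold change 1.12, SE 0.36, adjusted p = 0.00904). Nfe2 ran the other way, at 156, 257 and 456 CPM in erythroblast-like cells, against 348 to 644 CPM in sorted HSC, with 9 of 12 libraries below (log2 fold change -0.96, SE 0.31, adjusted p = 0.00896). Zfpm1 averaged 442 ± 240 CPM in erythroblast-like cells (SD, n = 12) and 199 ± 143 CPM in sorted HSC (SD, n = 4), with adjusted p = 0.352. Gfi1b averaged 232 ± 141 CPM in erythroblast-like cells (SD, n = 12) and 96.1 ± 78.1 CPM in sorted HSC (SD, n = 4), with adjusted p = 0.241.

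The calls of the smaller differences rest on the settings. The call on Tal1 was lost without sorted HSC replicate 5 (1.03, adjusted p = 0.051), and that on Nfe2 without sorted HSC replicate 4 (-0.77, adjusted p = 0.07), with finer clusters (-0.49) and without the filter on low counts (-0.34). Without that filter 13380 genes were tested, 9.23% were called higher, and Zfpm1 (1.08, adjusted p = 0.029) and Gfi1b (1.19, adjusted p = 0.0198) were among them. That fit called 1235 genes higher and 3280 lower, its all-gene median was -0.62 against 0.11 with the filter, and all 7 genes had a higher log2 fold change than with the filter (Gata1 3.79, Tal1 1.74). Of 9 tested other erythroid regulators 8 were higher and 0 lower in erythroblast-like cells (median 2.46, against 0.11 over all genes), with E2f2 (5.52), E2f4 (2.46) and Trim10 (8.10) the most abundant. Of 8 complex partners 0 were higher and 4 lower, including Lmo2 (-0.90), Chd4 (-1.15) and Lyl1 (-1.44). Both tested stem and myeloid factors were lower, Hlf (-8.05) and Myb (-3.06), and the 1 tested small MAF family gene was not called.

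Within the marrow, erythroblast-like cells were compared with the other micro-dissected cells of the same library (12 libraries, library as a block, megakaryocyte-like cells left out). Klf1, Hemgn, Tal1 and Zfpm1 were higher in erythroblast-like cells in 12 of 12 libraries and Nfe2 was not called. Of 1213 genes tested 30.2% were called higher and 28.7% lower. Higher genes were 51.3% of the calls, and 41.2% with factors computed without globin genes. The filter on low counts can be passed through 1 arm alone, here the erythroblast-like sums where Klf1, Hemgn, Tal1 and Zfpm1 are high. Without the filter, beside 7.27% of 14294 genes called higher, they were called at log2 fold changes of 4.66, 4.45, 3.42 and 3.35.

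Klf1 averaged 574 ± 240 CPM in erythroblast-like cells and 20.6 ± 20.5 CPM in the other cells (SD, n = 12 each; log2 fold change 4.73, SE 0.29, adjusted p = 5.98e-13). Hemgn averaged 1474 ± 677 CPM in erythroblast-like cells and 69.9 ± 118 CPM in the other cells (SD, n = 12 each; log2 fold change 4.53, SE 0.33, adjusted p = 1.06e-11). In replicate 3 the other cells, unnamed cells among them, had 435 CPM of Hemgn and 218 CPM of Tal1, the highest of the 12. Tal1 averaged 656 ± 254 CPM in erythroblast-like cells and 51.0 ± 59.1 CPM in the other cells (SD, n = 12 each; log2 fold change 3.50, SE 0.30, adjusted p = 1.63e-10), and Zfpm1 442 ± 240 CPM and 33.8 ± 19.9 CPM (3.45, SE 0.27, adjusted p = 1.94e-11).

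Nfe2 averaged 300 ± 95.8 CPM in erythroblast-like cells and 185 ± 39.7 CPM in the other cells (SD, n = 12 each) and was higher in 11 of 12 libraries, at a log2 fold change of 0.39 (SE 0.20, adjusted p = 0.0941). Scaled by library totals it passed, at 0.60 (adjusted p = 0.0071). Gata1 and Gfi1b did not reach the filter on low counts. Without the filter 14294 genes were tested and 7.27% were called higher (all-gene median -0.46), with Gata1 at 2.73 (SE 0.32, adjusted p = 1.04e-15) and Gfi1b at 3.03 (SE 0.32, adjusted p = 1.22e-19), each higher in 12 of 12 libraries.

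Among the related lists, 5 of 6 tested other erythroid regulators were higher and 0 lower (median 2.32, against 0.09 over all genes), including E2f2 (2.05), E2f4 (2.60) and Trim10 (3.68). Of 3 complex partners Lmo2 was higher (1.51), so that Lmo2 was higher than in the other marrow cells and lower than in sorted HSC. The stem and myeloid factors Cebpe (-4.14) and Myb (-2.05) and the 1 tested small MAF family gene, Nfe2l2 (-0.75), were lower.

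Shares of cells with a transcript were compared after each cell was thinned to 1000 molecule tags, which left out 18 erythroblast-like and 7 neutrophil-line cells. Before thinning the median cell had 1814 transcripts among erythroblast-like cells, 1926 among sorted HSC and 2811 among neutrophil-line cells. Hemgn was detected in 77.3% of 220 thinned erythroblast-like cells (exact 95% binomial interval 71.2 to 82.6%), in 1.63% of 245 sorted HSC (0.447 to 4.13%) and in 4.30% of 256 neutrophil-line cells (2.16 to 7.56%). Neutrophil-line cells, which should lack these genes apart from Nfe2, serve as a reference. They come from micro-dissected libraries, and their erythroblast list summed to 886 to 74822 CPM per library, against 964 to 2498 CPM in sorted HSC. These intervals cover counting error over pooled cells, not the spread between libraries. Over libraries with at least 5 thinned cells, the Hemgn share ran from 0 to 2.50% in 3 sorted HSC libraries and from 0 to 21.1% in 13 neutrophil-line libraries, which overlap. Because the reference cells carry other erythroid RNA, this cannot tell whether the few Hemgn tags in sorted HSC are background.

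Gata1 was detected in 21.4% of erythroblast-like cells (16.1 to 27.4%), in 0 of 245 sorted HSC and in 0.781% of neutrophil-line cells. At 1000 tags a count of 0 allows up to 1.49% of sorted HSC with a tag by the exact interval, and at full depth 2.45% had one. Klf1 was detected in 52.7% of erythroblast-like cells and in none of the sorted HSC or neutrophil-line cells. Tal1 was detected in 55.0% of erythroblast-like cells, 22.4% of sorted HSC (17.4 to 28.2%) and 1.95% of neutrophil-line cells (0.637 to 4.50%), and Zfpm1 in 44.1%, 21.6% (16.6 to 27.3%) and 2.34% (0.865 to 5.03%) of those cells. Gfi1b was detected in 23.2% of erythroblast-like cells, 11.4% of sorted HSC (7.73 to 16.1%) and 1.95% of neutrophil-line cells. Between libraries, Tal1 ran from 13.9 to 26.3% in 3 sorted HSC libraries and from 0 to 11.1% in 13 neutrophil-line libraries. Zfpm1 ran from 15 to 27.5% and from 0 to 14.3% in the same libraries. These ranges did not overlap, by a narrow gap for Zfpm1, and the share of all genes that separate likewise is not given here. Gfi1b ran from 6.25 to 15.3% in sorted HSC and from 0 to 10.53% in neutrophil-line cells, which overlap.

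Nfe2 was detected in 31.4% of erythroblast-like cells, 32.7% of sorted HSC and 20.7% of neutrophil-line cells (15.9 to 26.2%). Before thinning the shares in sorted HSC were 53.9% for Nfe2, 40.8% for Zfpm1, 38.8% for Tal1, 20.8% for Gfi1b, 3.27% for Hemgn, 2.45% for Gata1 and 0 for Klf1. In unthinned erythroblast-like cells they ran from 37.0% for Gfi1b and 37.8% for Gata1 to 89.1% for Hemgn, and in neutrophil-line cells from 1.52% for Gata1 to 46.4% for Nfe2. A thinned erythroblast-like cell showed a median of 3 of the 7 genes and a sorted HSC a median of 1. Before thinning, 17 of 238 erythroblast-like cells showed all 7 and 7 showed none.

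**Figure D3:**
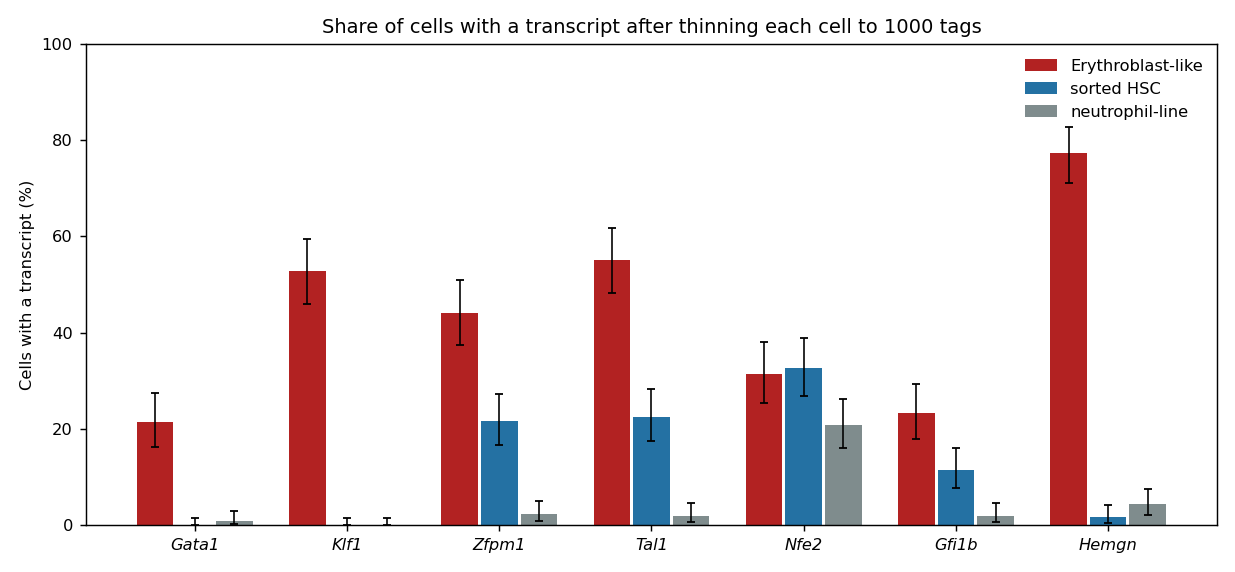
Percent of cells with at least 1 molecule tag of each gene after thinning every cell to 1000 tags, in erythroblast-like cells, sorted HSC and neutrophil-line cells; bars are exact 95% binomial intervals. Klf1 and Gata1 are at 0 in sorted HSC, while Nfe2 lies between 20.7% and 32.7% in all 3.

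Erythroblast-like cells were divided by Car1, a carbonic anhydrase of early erythroid cells, and Slc4a1, the anion exchanger of mature red cells. Cells with more Car1 than Slc4a1 were called early (38 cells, median 6097 transcripts) and the others late (200 cells, median 1705 transcripts), and 10 cells lay within 1 transcript of the split. Depth therefore moved with stage, and its part in the stage differences was not tested. Over 9 libraries with at least 3 cells of each stage, Hemgn, Tal1 and Klf1 were lower in early cells. Of 353 genes tested 35.7% were called lower in early cells and 39.1% higher, so these 3 calls stand beside about 1 in 3 genes, and the other 4 did not reach the filter on low counts. Higher genes were 52.3% of the calls, and 63.9% when scaled by library totals, with all-gene medians of 0.06 and 0.39.

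Hemgn averaged 599 ± 344 CPM in early and 2017 ± 918 CPM in late cells (SD, n = 9 libraries each) and was lower in early cells in 9 of 9 libraries (log2 fold change -2.01, SE 0.23, adjusted p = 7.02e-10). Tal1 averaged 405 ± 153 CPM in early and 859 ± 459 CPM in late cells (SD, n = 9 each), lower in 8 of 9 (-1.27, SE 0.24, adjusted p = 1.45e-05). Klf1 averaged 397 ± 131 CPM in early and 552 ± 110 CPM in late cells (SD, n = 9 each), lower in 8 of 9 (-0.58, SE 0.24, adjusted p = 0.0253). The Klf1 call was lost without replicate 9 (-0.52, adjusted p = 0.057), and both it and the Tal1 call were lost among cells with at least 2000 transcripts (-0.46, and -0.78 with adjusted p = 0.088).

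Without the filter, among 10660 genes of which 3.34% were called lower in early cells, Nfe2 was lower in 9 of 9 libraries, at 101 ± 82.9 CPM in early and 478 ± 140 CPM in late cells (SD, n = 9 each; -2.05, SE 0.37, adjusted p = 2.02e-06). Zfpm1 was lower in 8 of 9, at 227 ± 121 CPM in early and 456 ± 180 CPM in late cells (SD, n = 9 each; -0.99, SE 0.33, adjusted p = 0.037). Gata1, at 168 ± 72.3 CPM in early and 208 ± 111 CPM in late cells (SD, n = 9 each), was not called (-0.18, adjusted p = 0.843), and nor was Gfi1b, at 213 ± 103 CPM in early and 179 ± 51.7 CPM in late cells (0.16, adjusted p = 0.867). Gata1 was lower in early cells in 5 of 9 libraries.

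With at least 5 cells of each stage only replicates 7 and 11 entered. There Hemgn (-2.06), Tal1 (-1.89) and Nfe2 (-3.22) were called lower in early cells and Klf1 was not (-0.15, adjusted p = 0.897), with 14.6% of 521 genes called lower. All 3 calls were lost without the library block and without the filter, at log2 fold changes of -1.66 (Hemgn), -1.50 (Tal1) and -2.90 (Nfe2) without the filter. With DESeq2 those on Hemgn and Tal1 were lost and Nfe2 was given no adjusted p. In simulated data of that size 0 of 104 genes changed by known folds were recovered. Of the related lists only Lmo2 (-0.46), E2f2 (-2.62) and E2f4 (-0.75) were tested over the 9 libraries, and all 3 were lower in early cells. By cluster, pooled and with no test, Nfe2 had 684 CPM (exact interval 403 to 1076) in 20 cells led by Tmcc2 and Xpo7, 497 CPM (411 to 592) in 127 cells led by Epb4.9 and Hbb-b1 and 149 CPM (115 to 189) in 91 cells led by Car1 and Mt2. Gata1 had 114 CPM (23.4 to 332, from 3 transcripts), 220 CPM and 214 CPM in these clusters, and Gfi1b had no transcript (up to 140 CPM), 294 CPM and 291 CPM.

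**Figure D4:**
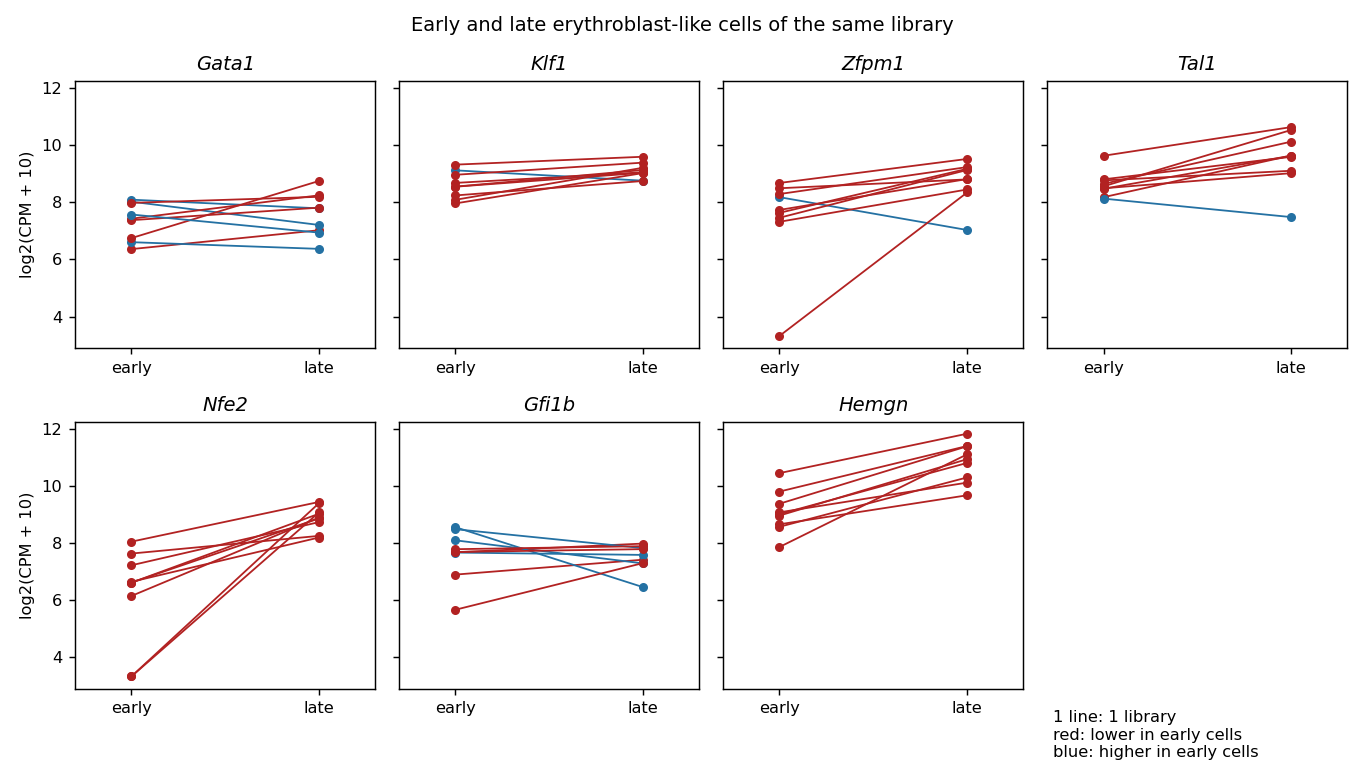
Level of the 7 genes as log2(CPM + 10) in early and late erythroblast-like cells of 9 libraries, with a line joining the stages of 1 library. Hemgn and Nfe2 lie lower in the early cells in 9 of 9 libraries, and Gata1 in 5 of 9.

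The 8 megakaryocyte-like cells came from 5 libraries and had a median of 10272 transcripts each. All 24 megakaryocyte markers, which also served to name the cluster, were detected, with 1832 transcripts of Pf4 and 1282 of Itga2b, against 4 each of Hba-a1 and Hbb-b1. Gata1, Tal1 and Nfe2 were found in 8 of 8 cells, Gfi1b in 6, Zfpm1 in 4, Hemgn in 3 and Klf1 in none. Gata1 ran from 161 to 948 CPM over the single cells, Tal1 from 236 to 2099 CPM and Nfe2 from 495 to 3534 CPM.

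Only replicates 14 and 15 held at least 2 megakaryocyte-like and 5 erythroblast-like cells, fewer than the 3 libraries set as the least for a test of this comparison, so counts are given with exact 95% Poisson intervals. Nfe2 had 2035 CPM (1685 to 2449) in the 5 megakaryocyte-like cells, against 289 CPM (206 to 392) in the 50 erythroblast-like cells of these libraries. Gata1 had 614 CPM (433 to 864) in megakaryocyte-like cells, against 224 CPM (152 to 317) in erythroblast-like cells. Tal1 (652 and 572 CPM) and Gfi1b (268 and 225 CPM) had intervals that overlapped. Klf1 had no transcript in megakaryocyte-like cells, against 616 CPM in erythroblast-like cells, and Zfpm1 (125 and 455 CPM) and Hemgn (71.3 and 1375 CPM) lay lower in megakaryocyte-like cells. Over all cells Klf1 was at least 26.4-fold lower in megakaryocyte-like than in erythroblast-like cells.

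With 1 megakaryocyte-like cell per library allowed, 4 libraries entered, and a single cell may then stand for a library. Klf1 (adjusted p = 1.25e-10) and Hemgn (-5.19, SE 0.76, adjusted p = 6.16e-11) were lower in megakaryocyte-like cells and Nfe2 was higher (1.94, SE 0.59, adjusted p = 0.00147), while 46.3% of 823 genes were called lower and 36.2% higher and the all-gene median was -0.81. Nfe2 had 1398, 505, 1378 and 3504 CPM in the megakaryocyte-like cells of replicates 9, 10, 14 and 15, against 156, 456, 252 and 343 CPM in their erythroblast-like cells. Without replicate 15 its log2 fold change was 1.27, and without replicate 14 that of Hemgn was -6.07.

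Gata1 had 272, 160, 520 and 791 CPM in the megakaryocyte-like cells of those libraries, against 156, 95, 192 and 271 CPM in their erythroblast-like cells. It was higher in 4 of 4 and was not called by edgeR (0.82, adjusted p = 0.188), whereas DESeq2 called it (1.20, adjusted p = 0.045). Tal1 had 544, 692, 650 and 678 CPM in megakaryocyte-like cells, against 234, 589, 612 and 505 CPM in erythroblast-like cells, higher in 4 of 4. It was not called (0.11, adjusted p = 0.861), and the sign of its TMM-scaled log2 fold change turned without replicate 10 (-0.24) or 15 (-0.17). Without the filter, with 12.2% of 10181 genes called lower, Zfpm1 was lower in megakaryocyte-like cells (-1.79, SE 0.66, adjusted p = 0.0384) and Gfi1b was not called (-0.37, adjusted p = 0.787). Of 6 tested other erythroid regulators 2 were higher and 3 lower in megakaryocyte-like cells (median -1.69), with the survival factor Bcl2l1 (2.04) higher and E2f2 (-6.35) and E2f4 (-4.51) lower, and Lmo2, the 1 tested complex partner, was lower (-4.89).

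Eosinophil-like cells were set against neutrophil-line cells of the same library, since GATA1 is also a factor of the eosinophil line. Gata1 averaged 109 ± 99.5 CPM in eosinophil-like and 3.82 ± 6.21 CPM in neutrophil-line cells (SD, n = 10 libraries each) and was higher in 7 of 10 libraries. None of the 7 genes reached the filter on low counts, which 259 genes passed. Without it Gata1 was called higher (log2 fold change 3.27, SE 0.70, adjusted p = 0.000258), beside 0.647% of 11907 genes (all-gene median -0.60), and the other 6 were not called. Of the related lists 1 gene, a stem and myeloid factor, passed the filter and was not called. The 10 libraries held 40 eosinophil-like cells, and the whole class of 46 cells held 20 Gata1 transcripts.

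Markers of basophils and mast cells, which also use GATA factors, were present in the same class. That list summed to 80.5 to 21255 CPM per library in eosinophil-like cells, with 6 of 8 genes present (Mcpt8 at 1367 and Prss34 at 1443 CPM, Gzmb and Tpsb2 at 0), against 0 to 327 CPM in neutrophil-line cells. The 22 eosinophil-like cells with a transcript of the list, deeper at a median of 4255 transcripts, had 17 Gata1 transcripts (142 CPM, interval 82.5 to 227). The 24 cells without one, at a median of 1535, had 3 (65.0 CPM, interval 13.4 to 189). These intervals overlap, and the part of basophils and mast cells in the Gata1 level was not tested. The erythroblast list summed to 605 to 19279 CPM per library in eosinophil-like and 886 to 74822 CPM in neutrophil-line cells, while Klf1, the most restricted of the 7, had 12 and 8.23 CPM.

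The likeness of patterns was described by Pearson correlations of log2(CPM + 10) over 46 sums per library and class of at least 5 cells, 12 of them erythroblast-like and 3 of sorted HSC. Megakaryocyte-like cells, where Nfe2, Gata1 and, narrowly on pooled counts, Tal1 stood highest, gave none of these sums, nor did the unnamed cells. Sums of 1 library share its depth and erythroblast-like sums dominate the high end, so no p is given. Among the 6 genes other than Nfe2, pairs had r from 0.63 to 0.82, and Nfe2 had 0.14 to 0.43 with each of them. Over 2701 genes, Klf1 was most like Ermap (0.94), Rhag (0.93) and Epb4.9 (0.90), genes of red cell membrane proteins, and Hemgn was most like Ctse (0.93), Ank1 (0.90) and Epb4.9 (0.90). Gata1 was most like Bola3 (0.80), Ces2g (0.80) and Epor (0.79), the erythropoietin receptor. Tal1 was most like Gch1 (0.85), Lmna (0.84) and Samd14 (0.84), Gfi1b like Pla2g12a (0.84), Alad (0.83) and Ifrd2 (0.83), and Zfpm1 like Gfi1b (0.82), Ifrd2 (0.81) and Sox6 (0.81). Nfe2 had no gene over 0.63, its highest being Morf4l1 (0.63), Gid8 (0.60) and 2810474O19Rik (0.59).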

How the data were processed

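The files hold estimated counts of transcripts per gene and cell, deposited by the authors in 1 table of 21 libraries; per the submitters' processing notes reads were aligned with BWA 0.6.2-r126 to mm10. Micro-dissected replicate 18 and sorted HSC replicate 2 were not analysed here. Replicates were numbered in accession order and pair nothing. Cells with at least 1000 transcripts were kept, no doublet caller was run, and no cell name is shared between libraries. Cells were clustered with scanpy 1.11.5 and leidenalg 0.10.2 at resolution 1, leaving out 59 genes (the 7 genes and 4 related lists), and named from marker lists by a rule set after the clusters were seen. Transcripts were summed per library and class, rounded to whole numbers and tested with edgeR 4.0.16 in R 4.3.3 (quasi-likelihood test, TMM, filterByExpr, Benjamini-Hochberg over all genes tested, 0.05), with the library as a block where both sums come from 1 library. A gene high in 1 arm alone can pass filterByExpr, as Klf1 did where the other arm had no transcript. Fold changes use TMM factors and need not equal ratios of the CPM, which are per total. SE is the log2 fold change divided by the root of F. DESeq2 1.42.0, other scalings, filters, cells and left-out libraries were alternatives. Thinning turned estimated transcripts back into whole molecule tags (256 possible tags) and drew 1000 per cell.

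All 7 genes were named in every comparison, with the 3 most abundant called genes of each related list and the 3 genes most like each member among those with at least 200 transcripts. The result of 1 further list is not reported here. The genes, lists and comparisons were chosen with earlier results of these data known. The fits were tested on simulated sums with 4-fold changes and recovered 86 of 200 changed genes for sorted HSC against micro-dissected cells, 127 of 200 for erythroblast-like cells against sorted HSC and 142 of 200 against other cells. They recovered 52 of 70 for stages over 9 libraries, 57 of 164 for megakaryocyte-like cells and 37 of 50 for eosinophil-like cells.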

Additional observations from a re-analysis of the deposited data

Results flagged for a closer look

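Of 47 groups of 4 to 10 libraries, 5 held a library whose gap to its nearest neighbour passed Dixon's 95% limit. For independent normal values chance alone passes it in about 1 group in 20. These groups share libraries and many of their values are 0, so that rate need not hold for them. Tal1 in early erythroblast-like cells stood at 785 CPM in replicate 4 (3 cells), against 269 to 436 CPM in the other libraries. Gfi1b in neutrophil-line cells stood at 56.9 CPM in replicate 14 (20 cells), against 0 to 23.2 CPM in the others, and Gfi1b in eosinophil-like cells at 185 CPM in replicate 11 (3 cells), against 0 to 95.2 CPM. Hemgn in eosinophil-like cells stood at 164 CPM in replicate 17 (5 cells), against 0 to 51.0 CPM. Zfpm1 in neutrophil-line cells stood at 108 CPM in replicate 8 (7 cells), against 0 to 38.0 CPM.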

How the results depend on the processing

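Counts over the 7 genes stayed within 1.5 times in 94 of 99 alternatives. These were counts of genes called. For the megakaryocyte-like comparison described without a test they were counts of genes with the higher CPM in megakaryocyte-like cells. The exceptions were the stages over 2 libraries, where 3 genes were called and 0 with DESeq2 (which gave Nfe2 no adjusted p), with no filter or with no replicate block for the library, the stages over 9 libraries, with 1 in place of 3 among cells of at least 2000 transcripts, and eosinophil-like cells, with 1 in place of 0 without the filter. The replicate block changed no other count beyond that limit. Of 350 values of single genes, 320 kept direction and call, 5 gained a call, 18 lost one and 7 changed sign, none of them called in the main setting or after the change.

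The changes of sign were Tal1 in sorted HSC against micro-dissected cells, 0.017 when scaled by library totals, and Gfi1b there, which ran from -0.068 without sorted HSC replicate 4 to 0.65 without replicate 5. Klf1 over the 2 stage libraries was 0.17 by library totals and 0.23 without the filter. Tal1 in megakaryocyte-like against erythroblast-like cells was -0.14 without globin genes in the factors, and ran from -0.24 to 0.019 as each library was left out (replicate 10 lowest, replicate 9 highest). The cause of these changes was not tested. Besides the calls named with the results, Klf1 between stages was lost by library totals (-0.26), without the filter (-0.48) and with stages at least 2 times apart (-0.45).

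Counts over all genes moved further. Without the filter 2838 in place of 1106 genes were called for sorted HSC against micro-dissected cells, and 584 among cells of at least 2000 transcripts. For erythroblast-like cells against sorted HSC these were 4515 and 373 in place of 753, and against other cells 3675 and 466 in place of 714. Over 9 stage libraries they were 764 and 157 in place of 264. Without the filter 1999 in place of 679 were called for megakaryocyte-like and 508 in place of 58 for eosinophil-like cells. Over 2 stage libraries 98 genes were called, 9 with DESeq2, 7 without the filter, 22 without the block and 335 with stages taken from clusters (7 libraries), an alternative chosen after seeing the data, as were the 9-library and 4-library fits.

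The per-library files were not used as another count source, because their wells carry no key to the cell names. Leaving out a library, the higher minimum and the wider stage split could not be fitted with 2 stage libraries, and the 2 megakaryocyte libraries were described without a test. The study looked at few cells of some classes, 8 megakaryocyte-like among them, and at 4 sorted HSC libraries of which 1 held 2 cells. Genes such as Gata1, with 151 transcripts in 238 erythroblast-like cells, sit near the filter, so failing a call does not show equal levels.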

Other observations

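Erythroblast-like cells that shared a clump with another erythroblast-like cell (123 cells) had 692 CPM of Klf1, 621 of Tal1, 221 of Gata1 and 1426 of Hemgn. The 52 erythroblast-like cells whose clump held only cells of other classes had 558 CPM of Klf1, 733 of Tal1, 181 of Gata1 and 1223 of Hemgn. The exact Poisson intervals overlapped for all 4 genes, and no test over libraries was made. The 11 skeletal muscle-like cells had 364 CPM each of Tal1 and Hemgn (15 transcripts each), beside an erythroblast list summing to 35580 CPM in the same cells.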
